A study of Mus musculus with 54 samples.

Results

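The genes described here are 10 mouse regulators of the switch between the epithelial and the mesenchymal state, and the readout is the folding of the chromatin around them. They were taken by name, 10 of 21631 protein-coding genes of the annotation. Zeb1, Zeb2, Snai1, Snai2 and Twist1 are the factors that drive the mesenchymal state, and Esrp1, Esrp2, Grhl2, Ovol1 and Ovol2 are the factors that keep the epithelial state. Loops with an anchor bin within 100 kb of a gene body in the mouse build mm10 were given to that gene, and those with an anchor within 5 kb of a gene end were marked as gene-end loops. The domain of a gene was the one that covered most of its body.

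The series compared mouse pancreatic cancer cells with a gemcitabine-resistant derivative, and its labels give the cell line as a primary tumor. Per the labels, the parental cells had the genotype WT and received DMSO, and the resistant cells received gemcitabine dissolved in DMSO and have resistance as their genotype entry. The sources used here do not give strain, age, dose or the number of tumors. Gemcitabine is a nucleoside analogue that blocks DNA synthesis. Hi-C, an assay that ligates and sequences DNA stretches that touch in the nucleus, was labelled for 3 samples per condition. Resistance and presence of the drug went together in these groups and cannot be told apart.

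The deposited tables used here were 1 loop list with 5 kb bins and 1 domain list with 10 kb bins per condition. With 1 list per condition there is no error between replicates, so no difference between conditions was tested and all counts are descriptions of the lists. There were 6829 parental and 7169 resistant loops, and 2541 loops of each list were found in the other, which is 37.2% of the parental and 35.4% of the resistant list. A loop is called shared, or in both lists, where a loop of the other list had its anchors within 10 kb of each of its own. It is otherwise called parental-only or resistant-only, which says that it was not called in the other list and not that the contact was absent. Each loop carries a p-value from the authors' caller, at most 0.0497 in either list, and it ranks loops within a list. The sequencing depth behind the lists is unknown.

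Zeb1, Zeb2, Snai1 and Snai2 are zinc-finger repressors that bind E-box sequences and silence epithelial genes, with Cdh1 (E-cadherin, the adhesion protein of epithelial cell contacts) as the textbook target. Twist1 is a basic helix-loop-helix factor that acts in the same direction. Esrp1 and Esrp2 are RNA-binding proteins that set the epithelial pattern of splicing, for example of Cd44 and Fgfr2. Grhl2 is a grainyhead factor that sustains epithelial genes, and Grhl2, Ovol1 and Ovol2 repress Zeb1. The microRNAs of the miR-200 family act against Zeb1 and Zeb2 transcripts, and the Zeb proteins repress the miR-200 genes in return. In mouse models of pancreatic cancer, Zeb1 has been tied to metastasis and cell plasticity, and Snai1 and Twist1 to a poor response to gemcitabine.

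The sequences below belong to genes of the switch and lie outside the anchor bins of the listed loops. The Snai1 start is shown because the strongest gene-end loop of the 10 genes lay just upstream of it. Its promoter, from RefSeq on GRCm38.p6 (the patch release of mm10), covers chr2:167537945-167538244 on the plus strand, from 250 bases before to 50 bases after the start. The capitals mark an E-box of the kind bound by Snai and Zeb proteins, searched after the values were seen as CAGGTG or CACCTG, which are the same site read on either strand.
Snai1 promoter: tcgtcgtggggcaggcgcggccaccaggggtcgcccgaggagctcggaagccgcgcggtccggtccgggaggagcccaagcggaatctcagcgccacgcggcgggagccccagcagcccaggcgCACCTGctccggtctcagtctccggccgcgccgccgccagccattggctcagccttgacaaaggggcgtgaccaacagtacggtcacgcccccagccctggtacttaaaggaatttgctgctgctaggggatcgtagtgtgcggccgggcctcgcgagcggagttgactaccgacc
The match CACCTG lay 126 bases before the start. Such a match was present in 6640 of 32851 promoters of the same length, or 20.2%, so it is common. Promoter entries were matched for 4 of the 10 members, Zeb2, Snai1, Twist1 and Ovol2, in 7 windows, and Snai1 was the only member with a match. A match is a run of letters and not a measured binding site.

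The miR-200 microRNAs are shown because they join the Zeb genes to the epithelial factors. Their mature 3p strands, from RefSeq, are given with the seed (bases 2 to 8), the stretch that pairs with target transcripts, in capitals.
mmu-miR-141-3p: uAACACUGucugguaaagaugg
mmu-miR-200a-3p: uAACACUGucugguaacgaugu
mmu-miR-200b-3p: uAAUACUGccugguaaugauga
mmu-miR-200c-3p: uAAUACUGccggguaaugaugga
mmu-miR-429-3p: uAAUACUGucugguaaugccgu
The 5 microRNAs fell into 2 seed groups that differ at a single base. AACACUG is shared by 2 of them and AAUACUG by 3. Their genes lie in clusters on chromosomes 6 (Mir200c and Mir141) and 4 (Mir200b, Mir200a and Mir429). No loop of either list had an anchor within 5 kb of a miR-200 gene.

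Within 100 kb of the 10 genes the parental list had 18 loops and the resistant list 15, and 7 loops of each list were found in the other. That is 38.9% of the parental loops (exact Clopper-Pearson 95% interval 17.3 to 64.3%) and 46.7% of the resistant loops (21.3 to 73.4%), intervals that cover counting error only and that contain the shares of the whole lists. The other 11 loops were parental-only and 8 were resistant-only. A loop within 100 kb was listed for 9 of the 10 genes in the parental list, where 72.2% of all genes had one. In the resistant list it was listed for 8 of the 10, where 73.9% of all genes had one. Both counts lie close to their background, and the median per gene was 2 parental and 1 resistant loops for the members against 1 and 1 for all genes. The genes ran from 2.16 kb (Twist1) to 184 kb (Zeb1), and a longer gene has a wider window in which a loop can be counted.

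Gene-end loops were listed for 6 members in the parental list, namely Zeb1, Zeb2, Snai1, Esrp1, Esrp2 and Ovol1, where the share of all genes was 23.3%. In the resistant list they were listed for 5, namely Zeb1, Snai1, Esrp2, Grhl2 and Ovol1, where it was 23.8%. Each list had 6 gene-end loops, 4 of them found in both lists and 2 in that list only. The loops in both lists were at Zeb1, Snai1, Esrp2 and Ovol1. The parental-only ones were at Zeb2 and Esrp1, and the resistant-only ones at Zeb1 and Grhl2. With identical bins required, 2 gene-end loops were shared and 4 of each list were not. In the better-ranked part of each list, matched anew against that of the other, 2 were shared. The Ovol1 loop counted there as parental-only because its resistant entry fell past the cut.

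Counts by role were as follows in the lists as deposited. The 5 mesenchymal factors had 8 parental loops within 100 kb, 5 of them parental-only, and 8 resistant loops, 5 of them resistant-only. The 5 epithelial factors had 10 parental loops, 6 of them parental-only, and 7 resistant loops, 3 of them resistant-only. More parental-only than resistant-only loops were counted at 5 members (Zeb2, Snai2, Esrp1, Ovol1 and Ovol2), a state found at 31.0% of all genes. The reverse was counted at 4 members (Snai1, Twist1, Esrp2 and Grhl2), against 33.1% of all genes, and Zeb1 had 2 of each kind. Both groups mix mesenchymal with epithelial factors, but the split depends on the limits. With anchors within 50 kb, the same 5 members had more parental-only loops and 0 had more resistant-only loops. The better-ranked parts of the lists were matched anew against each other. There 3 members had more parental-only loops (Esrp1, Ovol1 and Ovol2) and 2 more resistant-only loops (Zeb1 and Grhl2). Ovol1 counted there only through its 35 kb loop, which the full lists share. The resistant entry of that loop, at rank 4525, fell past the cut. The shares of all genes were computed only for 100 kb in the full lists, so neither of these other splits has a background beside it. No pair of the 10 genes had the same set of counts of parental-only, resistant-only and shared loops.

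**Figure D1:**
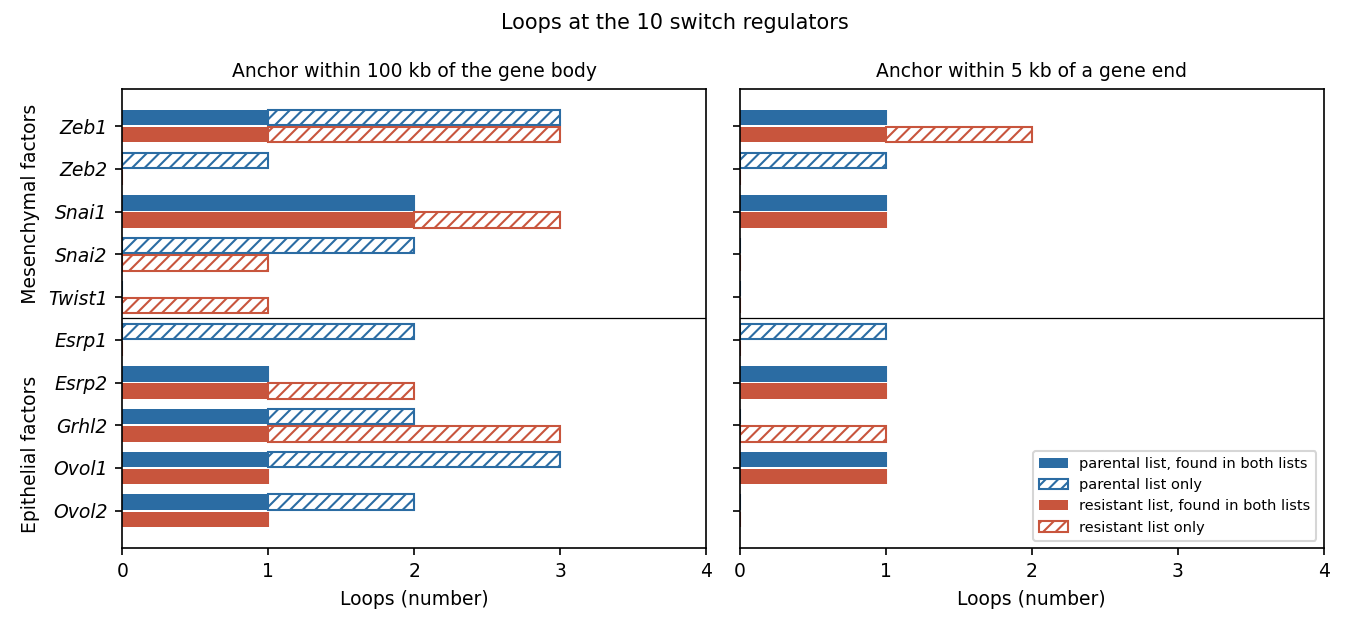
Number of loops per gene with an anchor within 100 kb of the gene body (left) and within 5 kb of a gene end (right), in the parental (blue) and resistant (red) lists, with 1 list per condition and no error bars. Filled bars are loops found in both lists and hatched bars loops of 1 list only: Snai1, Zeb1, Esrp2 and Ovol1 keep a filled gene-end bar in each colour, and Zeb2 and Esrp1 have hatched parental bars only.

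Among the mesenchymal factors, Snai1 had the gene-end loop with the lowest p-value of the members. Snai1 lies on the plus strand at chr2:167538195-167542814. The loop joined the bin chr2:167530001-167535000, 3.19 kb upstream of the start, to chr2:167605001-167610000 at Ube2v1, which encodes a ubiquitin-conjugating enzyme variant, over 75 kb. Its p-value was 7.81e-11 in the parental list, rank 42 of the list, and 8.33e-09 in the resistant list, rank 308. It was listed in identical bins in both. A shorter loop of 35 kb from Tmem189 was also in identical bins, 97.19 kb from the gene, with p-values of 7.98e-07 and 2.53e-06. A resistant-only loop of 240 kb lay 73.19 kb from the gene on the other side (caller's p-value 0.000795). The loop nearest to Snai1 was the same in both lists.

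The Snai1 domain began at 167500000 in both lists and ended at 168230000 (parental) and 168240000 (resistant), a step of 1 bin. It held Snai1 together with Ube2v1, Tmem189, Cebpb (a basic leucine zipper transcription factor) and Ptpn1 (a protein tyrosine phosphatase), with 10 (parental) and 11 (resistant) protein-coding genes. The border nearest to Snai1 was 38.2 kb from the gene in both.

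Zeb1 was the only protein-coding gene of its domain, and loop anchors sat at its lower-coordinate end in both lists. It spans chr18:5591327-5775468. A loop from the bin chr18:5590001-5595000, which contains that end, reached 400 kb to 5990001 in the parental list (caller's p-value 0.000644) and 395 kb to 5985001 in the resistant list (caller's p-value 0.0129). These loops ranked in the weaker part of their lists, with 62.1% of parental and 87.8% of resistant loops at or before them. They span nearly the whole domain, which ran from 5590000 to 6010000, 420 kb, with identical borders in both lists. The border lay 1.33 kb from the gene's lower-coordinate end.

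From the same end, at the domain border, a resistant-only loop of 265 kb went the other way to chr18:5325001-5330000 at Zfp438, a zinc-finger gene. Its p-value was 2.67e-05, and 37.8% of the resistant loops ranked at or before it, the strongest rank of the 8 resistant-only loops. Both of its bins lay within 10 kb of an anchor of some parental loop, but no parental loop joined them. The parental loop nearest in position was parental-only, of 355 kb and a caller's p-value of 0.0201, with an anchor displaced by 65 kb. That parental loop crossed the border, with its near bin inside the gene body. A parental-only loop of 65 kb ended 6.33 kb from the gene, just outside the gene-end limit (caller's p-value 0.00591), and a resistant-only loop of 75 kb started in the gene body (caller's p-value 0.009). Zeb1 had 1 parental and 2 resistant gene-end loops.

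Zeb2, the paralogue of Zeb1, had a single loop. It lies on the minus strand at chr2:44983512-45117442, and the parental-only loop joined chr2:44985001-44990000, at the end opposite its start, to chr2:44090001-44095000 over 895 kb. The p-value was 0.0227, and 93.9% of the parental list ranked at or before it, so it was among the weaker calls. In the resistant list the nearest anchor was 1568 kb from the gene. The Zeb2 domain was 1210 kb in both lists, with Arhgap15 and Gtdc1 as the other genes, and both borders stood 10 kb lower in the resistant list. The border next to the Zeb2 start was 12.56 kb from it in the parental list and 2.56 kb in the resistant list, a step of 1 bin.

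Snai2, a paralogue of Snai1 at chr16:14705852-14709395, had no gene-end loop in either list. The bin chr16:14725001-14730000, 15.61 kb from the gene, was an anchor in both lists but with different partners. In the parental list it was joined over 245 kb to a bin at Efcab1 (caller's p-value 0.0155), and in the resistant list over 50 kb to a bin with no gene end near it (caller's p-value 0.000521). A further parental-only loop of 15 kb had a p-value of 0.0201. The domain measured 910 kb (parental) and 870 kb (resistant), with each border moved inwards by 20 kb, the widest shift that still counted as matched.

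Twist1, on the plus strand at chr12:33957671-33959831, had no parental loop within 100 kb, and its nearest parental anchor was 623 kb away. The resistant list had 1 loop of 15 kb, 50.17 kb from the gene (caller's p-value 0.00127). Its domain differed most between the lists in position. It ran from 33930000 to 34660000 in the parental list (730 kb) and from 33950000 to 34440000 in the resistant list (490 kb). The resistant border at 34440000 was 220 kb from the nearest parental border. It fell inside Hdac9, a histone deacetylase gene at chr12:34047580-34917095, as did the parental border at 34660000. The latter was also a border of the resistant list, so the stretch covered by the parental domain was divided in the resistant list. The border on the Twist1 side was 27.67 kb from the gene in the parental list and 7.67 kb in the resistant list.

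**Figure D2:**
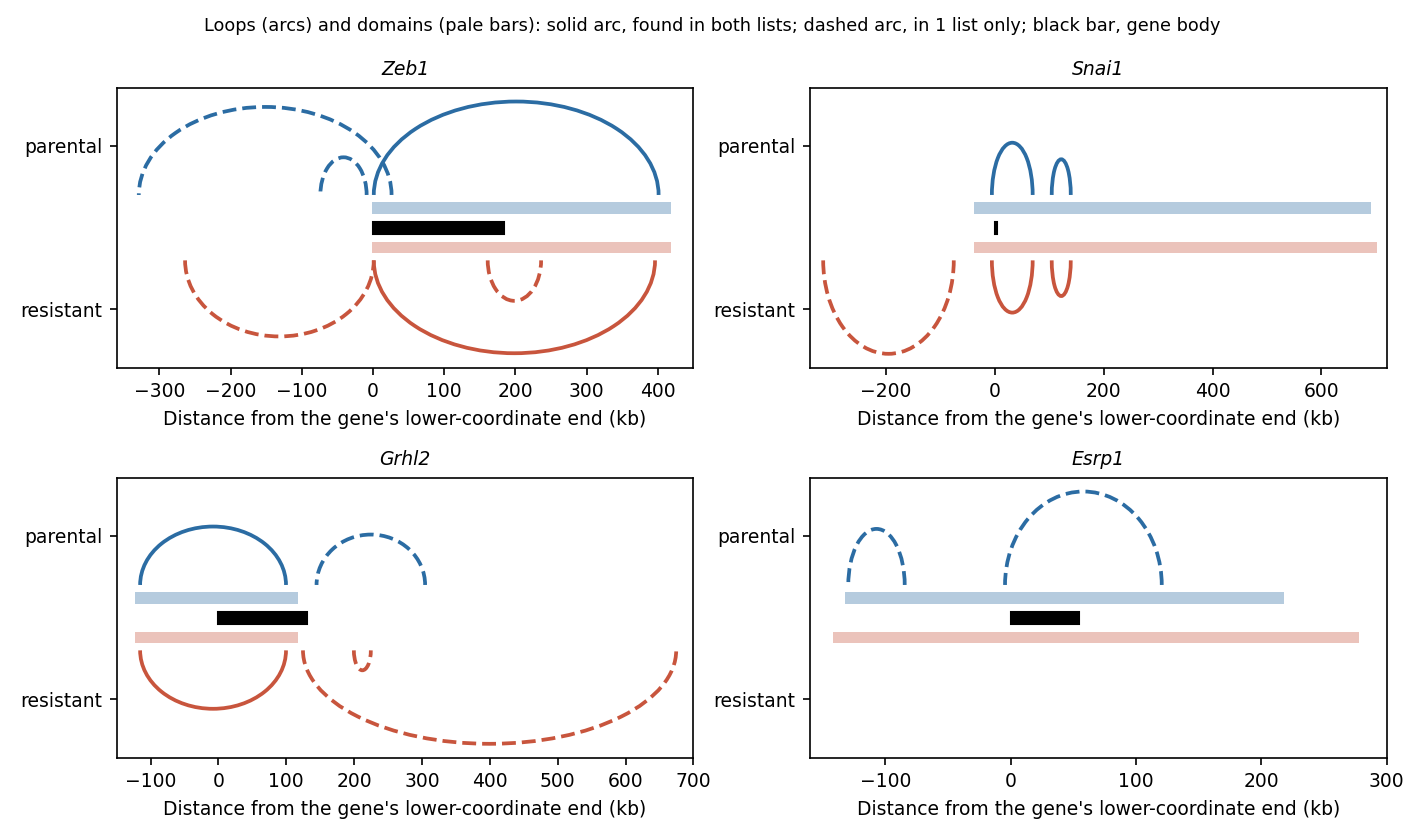
Loops (arcs) and domains (pale bars) around Zeb1, Snai1, Grhl2 and Esrp1 by distance in kb from the lower-coordinate end of the gene, parental above and resistant below the black gene body, with solid arcs for loops in both lists and dashed arcs for loops in 1 list. Arc height has no unit. The Snai1 loop of 75 kb and the Grhl2 loop of 215 kb are solid on both sides, both Esrp1 arcs are dashed and parental, and Zeb1 has a dashed resistant arc of 265 kb to the left of its domain.

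Among the epithelial factors, Grhl2 had the loop with the lowest p-value in the resistant list among the members. Grhl2 spans chr15:37232821-37363569. The loop joined chr15:37115001-37120000 to chr15:37330001-37335000, inside the gene body, over 215 kb in identical bins. Its p-value was 1.6e-10 in the parental list (rank 61) and 1.19e-10 in the resistant list (rank 43). It lay just within the Grhl2 domain of 240 kb, 37110000 to 37350000 in both lists, which held no other protein-coding gene. The upper border cut through Grhl2, 13.57 kb from that end, so 89.6% of the gene body was in the domain.

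At that upper end of Grhl2, outside the domain, the lists differed. A resistant-only gene-end loop joined chr15:37355001-37360000, 3.57 kb from the end, to chr15:37905001-37910000 over 550 kb (caller's p-value 0.000122, with 48.4% of the list at or before it). The far bin was an anchor in the parental list too, with another partner. A resistant-only loop of 25 kb had a p-value of 0.00182. The parental list had a parental-only loop of 160 kb from a bin 11.43 kb beyond the gene (caller's p-value 0.0281). Which end is the start of Grhl2 was not given in the annotation used here.

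Esrp1, at chr4:11331933-11386783, had loops in the parental list only. The gene-end loop joined chr4:11325001-11330000, 1.93 kb from the lower-coordinate end, to chr4:11450001-11455000 over 125 kb (caller's p-value 5.81e-05, with 44.9% of the list at or before it). That bin is also near an end of Dpy19l4, so the loop cannot be given to Esrp1 alone. The other loop, of 45 kb, lay 81.93 kb away, with a caller's p-value of 2.61e-06. It joined a bin at Ccne2 (cyclin E2) and Ints8 (a subunit of the Integrator complex) to another bin at Ints8. In the resistant list the nearest anchor was 157 kb from the gene. The Esrp1 domain was 350 kb with 4 genes in the parental list and 420 kb with 8 genes in the resistant list, its upper border 60 kb further out, inside Rad54b, a DNA repair gene. The wider domain took in Ccne2, Rad54b and Fsbp.

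Esrp2, the paralogue of Esrp1 at chr8:106130319-106137193, differed from it in having a gene-end loop in both lists. The anchor was chr8:106140001-106145000, 2.81 kb from the gene. The partner bin was at Slc7a6 and Slc7a6os, 55 kb away, in the parental list (caller's p-value 1.85e-06, rank 1675) and at Slc7a6os and Prmt7, 65 kb away, in the resistant list (caller's p-value 3.06e-06, rank 1792). A resistant-only loop of 155 kb between Nfatc3 and Prmt7 passed over Esrp2 and crossed its border (caller's p-value 0.00935). The domain was identical in the lists, 106130000 to 106680000, with a border 0.32 kb from Esrp2.

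The Esrp2 domain also held Cdh1 and Cdh3, the genes of E-cadherin and P-cadherin, among 9 protein-coding genes. A loop of 85 kb joined the Cdh3 end at chr8:106560001-106565000 to chr8:106645001-106650000, within the Cdh1 body (chr8:106603350-106670247), in identical bins of both lists. Its p-values were 1.19e-09 (parental) and 1.45e-09 (resistant). At the Cdh1 ends the parental list had no loop. The resistant list had 1 resistant-only loop between neighbouring bins, 5 kb apart, with a p-value of 0.0179. The domain that holds both an epithelial splicing factor and the target gene of the Snai and Zeb repressors had the same borders in both conditions.

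Ovol1, a zinc-finger gene at chr19:5549137-5560575, had a gene-end loop of 35 kb in identical bins of both lists. It joined chr19:5530001-5535000 to chr19:5565001-5570000, 4.43 kb from the gene, with p-values of 4.67e-05 (parental) and 0.000892 (resistant). The bin is also near Ap5b1. Parental-only loops were a 25 kb loop between Kat5, a histone acetyltransferase, and Rela, a subunit of NF-kappaB (caller's p-value 0.0002), and a 90 kb loop starting 9.14 kb from Ovol1 (caller's p-value 0.00389). The domain, 5460000 to 5780000, was identical and gene-dense, with 21 genes.

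Ovol2, on the minus strand at chr2:144305175-144332080, had no gene-end loop. A parental-only loop of 105 kb from chr2:144345001-144350000 was the nearest, 12.92 kb upstream of the gene (caller's p-value 9.42e-06, with 33.3% of the list at or before it). A loop in both lists, from Rrbp1, spanned 210 kb (parental) and 200 kb (resistant), and its near anchor was 85.17 and 95.17 kb from Ovol2 (caller's p-values 4.71e-06 and 3.54e-05). The domain of 330 kb with 9 genes was identical. Ovol1 and Ovol2 were alike in that each had identical domains and parental-only loops without resistant-only ones.

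**Figure D3:**
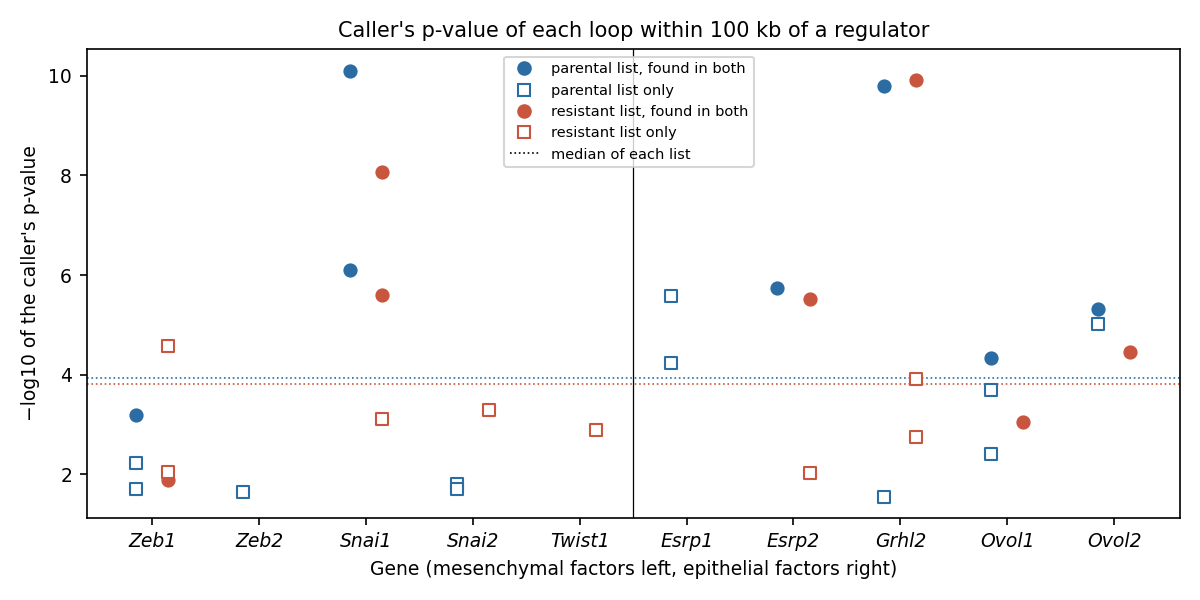
Strength of each loop within 100 kb of a member, as -log10 of the caller's p-value on the vertical axis, by gene. Filled circles are loops in both lists and open squares loops in 1 list only, blue for parental and red for resistant, with dotted lines at the median of each list. The highest points are filled (Snai1 and Grhl2, p-values of 7.81e-11 and 1.19e-10), and the shared Zeb1 loop lies below the median line of each list.

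Across the members, loops found in both lists reached further up the rankings than the rest. In the parental list 0.615% to 62.1% of loops ranked at or before the 7 shared loops, and 26.0% to 95.5% at or before the 11 parental-only loops. In the resistant list the spans were 0.6% to 87.8% for the 7 shared and 37.8% to 84.7% for the 8 resistant-only loops. The ranges overlap in both lists. Of the parental-only loops, 8 had neither anchor in use in the resistant list and 3 had 1 anchor in use. Of the resistant-only loops, 4 had neither anchor in use in the parental list, 3 had 1 and the Zeb1 loop to Zfp438 had both. The same ranges and counts were not computed for all loops of the lists, so they do not set the members apart from the lists.

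Most of the loops stayed within a domain, as in the lists as a whole. In the parental list 17 of 18 member loops lay within 1 domain of that list, against 93.4% of all loops, and in the resistant list 13 of 15, against 93.1%. The crossing loops were the parental-only 355 kb loop at Zeb1, the resistant-only 265 kb loop at Zeb1 and the resistant-only 155 kb loop over Esrp2. Loops were placed by the midpoints of their bins. The near bin of the 265 kb loop starts at the Zeb1 domain border, so with 10 kb domain bins its crossing is not resolved.

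The domains of 8 of the 10 members had both borders within 20 kb in the other list, where the share of all genes with a domain in both lists was 60.4%. Twist1 and Esrp1 were the exceptions. Identical borders were found at 5 members, Zeb1, Esrp2, Grhl2, Ovol1 and Ovol2, against 31.3% of all genes. Of these, 4 were epithelial and 1 mesenchymal, and each also had a loop in both lists. Snai1 had shared loops too, without identical borders, and the share of all genes with a shared loop was not computed. For the members the median domain size was 485 kb (parental) and 455 kb (resistant), and for all genes 550 and 540 kb.

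Several members lay close to a border, a description chosen after the values were seen. In the parental list a border stood within 10 kb of a gene end of 2 members, Zeb1 and Esrp2, where 12.2% of all genes had one. In the resistant list it did so at 4 members, Zeb1, Zeb2, Twist1 and Esrp2, where the share was 13.0%. The change at Zeb2 was a step of 10 kb and that at Twist1 of 20 kb, within the tolerance used for matching. For the members the median distance from a border to the nearest gene end was 31.4 kb (parental) and 14.7 kb (resistant), and for all genes 92.8 and 89.0 kb.

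**Figure D4:**
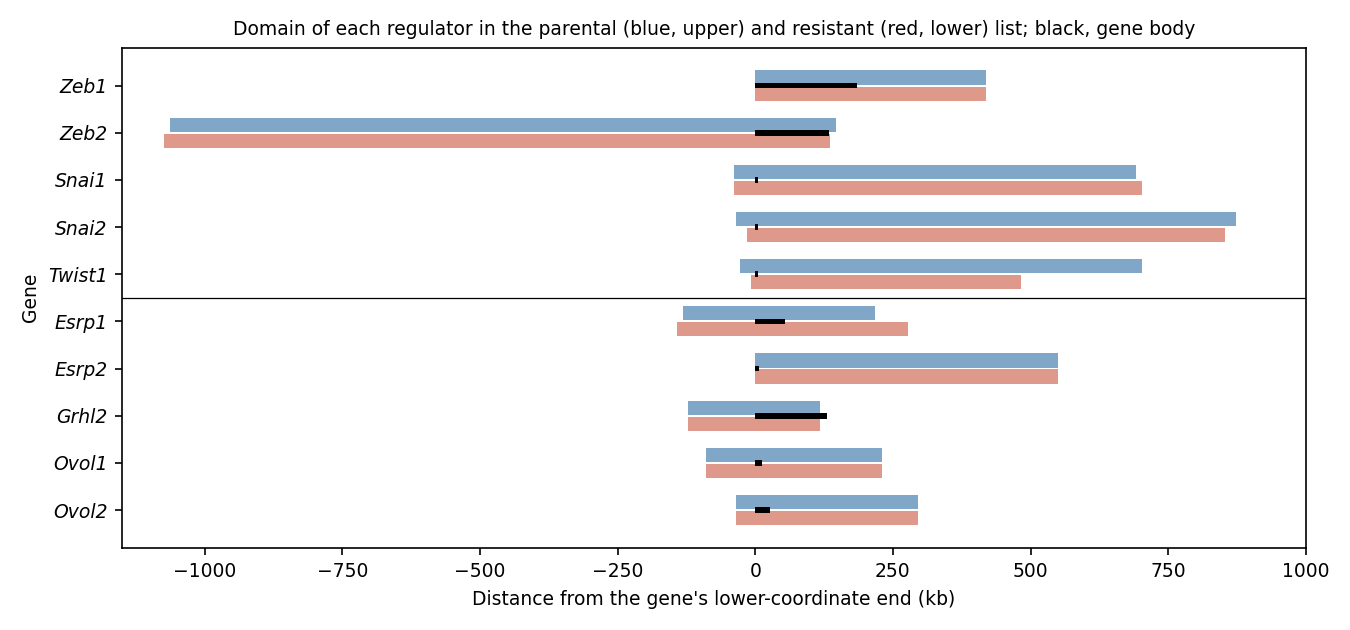
Domain of each member in the parental (blue) and resistant (red) lists, by distance in kb from the lower-coordinate end of the gene, with the gene body in black and the mesenchymal factors above the line. The bars coincide at Zeb1, Esrp2, Grhl2, Ovol1 and Ovol2, the Twist1 bar ends 220 kb earlier in the resistant list, and the Esrp1 bar ends 60 kb later.

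Genes around the switch were counted in 7 lists with 85 genes in all, by their gene-end loops. Of these, 30 had a parental gene-end loop (35.3%, beside 23.3% of all genes) and 28 a resistant one (32.9%, beside 23.8%). The gene sets differ, as the 85 include 5 miR-200 genes, none with a gene-end loop. The shares of all genes cover protein-coding genes only. More parental-only loops were counted at 12 and more resistant-only loops at 11, and the median difference was 0 in each list, as it was over all genes. Of the 20 epithelial genes, 1 had more parental-only and 5 more resistant-only loops. Genes and not loops were counted here. Among those 5, Ocln and Marveld2 lie in the same domain with the same caller's p-value (6.3e-05), so 1 loop may be counted at both. The Cdh1 loop among them joined neighbouring bins (caller's p-value 0.0179). Of the 20 mesenchymal genes, 3 had more parental-only and 1 more resistant-only loops. Of the 12 other epithelial factors, such as Grhl1 and Elf3, 4 had more parental-only and 1 more resistant-only loops, and of the 12 other mesenchymal factors, such as Prrx1, the counts were 2 and 1. Among 8 ligand, receptor and Smad genes of the transforming growth factor beta pathway, listed as inducers of the switch, they were 2 and 1. Over all genes, 11.3% had more parental-only and 11.8% more resistant-only gene-end loops.

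Of the 8 splice targets of the Esrp proteins, 2 had more resistant-only loops and none more parental-only. Cd44, whose variant exons are included under Esrp1, had the widest difference among the related genes, with 3 resistant-only loops at its ends (caller's p-values 3.64e-05, 0.000116 and 0.00344) and no parental-only loop. It had 1 parental and 2 resistant loops found in both lists as well. In the opposite direction Lama5, which encodes a laminin chain of epithelial basement membranes, had 2 parental-only loops (caller's p-values 1.57e-09 and 7.03e-08) and no resistant loop at its ends, and the bin at Lama5 is shared with Adrm1. Vim, the mesenchymal intermediate filament gene, had 1 parental-only loop of 35 kb to Trdmt1 (caller's p-value 1.74e-05). Epcam, an epithelial adhesion gene, had none at its ends in either list.

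Domains of the related genes had both borders matched at 55 of the 81 with a domain in both lists, or 67.9%, beside 60.4% of all genes. The 81 include 2 miR-200 genes, and the share of all genes covers protein-coding genes only. The share was lowest among the epithelial genes, at 8 of 20, some of which share a domain, such as Krt8 and Krt18 or Cldn3 and Cldn4. Counted by domain it was 6 of 16. The count was 12 of 12 among the other epithelial factors. The mesenchymal genes had 11 of 19 matched, the other mesenchymal factors 10 of 12, and the splice targets and the inducers 6 of 8 each. These counts were not tested against the share of all genes.

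The miR-200 genes had loops within 100 kb. At the Mir200c and Mir141 cluster both loops were found in both lists, a C1rb to C1s2 loop 78.32 kb away (caller's p-value 0.000227 parental and 0.00351 resistant) and a 5 kb loop at Usp5, 96.61 kb away (caller's p-values 0.0375 and 0.03). At the Mir200b, Mir200a and Mir429 cluster the lists differed. The parental list had a parental-only loop of 65 kb to B3galt6, 70.68 kb away (caller's p-value 0.000238). The resistant list had a resistant-only loop of 80 kb from a bin at Tnfrsf18 and Ttll10, 25.68 kb away (caller's p-value 4.07e-05). The chromosome 6 genes had matched domain borders, and the chromosome 4 genes had no domain in both lists.

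Some loops lay just beside the limits. Just inside 100 kb were the Tmem189 loop at Snai1 (97.19 kb) and the resistant Rrbp1 loop at Ovol2 (95.17 kb). Just outside were a parental-only loop 101.33 kb from Zeb1 (caller's p-value 0.00417), a resistant-only loop 101.43 kb from Grhl2 (caller's p-value 0.00117) and a shared loop 104.14 kb from Ovol1 (caller's p-value 0.0263). Inside 5 kb of an end were the Ovol1 loop (4.43 kb) and the Grhl2 loop (3.57 kb), and outside were the parental-only loops at Zeb1 (6.33 kb) and Ovol1 (9.14 kb).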

How the data were processed

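Per the labels' protocols, formaldehyde-fixed chromatin was cut with DpnII, the ends were biotinylated and ligated, and the biotin-marked fragments were enriched for sequencing. The submitters' processing notes name BWA, mm10 and hg19. Not given in the sources used here were the callers, their settings, and whether the 3 samples per condition were pooled. Doxorubicin appears in the series text for the Hi-C cells, but the sample labels say gemcitabine and were followed. The 48 samples of other assays were not analysed here.

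The authors' deposited loop lists give a p-value for each loop, per the file headers, and a call under their threshold is not listed. The deposited domain lists give a separation score, of unstated scale, which supports no result here. With the depth unknown, a less deeply sequenced list can hold fewer and weaker calls.

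Gene positions came from RefSeq (GRCm38.p6), which matched all 10 members. Strand was known for 4 members through the promoter table, so both gene ends were used. A loop was matched at 10 kb per anchor and a border at 20 kb. Distances run from the nearest edge of a 5 kb bin. Intervals are exact Clopper-Pearson. Partner genes had an end within 5 kb of the bin, at most 3 per bin, without predicted genes. From the related lists, genes with a difference of 2 or more, Cdh1, Epcam and Vim were named. No test was made. The members, the lists and the alternatives were chosen with earlier results of these data known. Matching was tested on simulated lists. Python 3.11.15, pandas 2.3.3, numpy 2.4.6, scipy 1.17.1 and matplotlib 3.10.9 were used.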

Additional observations from a re-analysis of the deposited data

How the results depend on the processing

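With identical bins required, shared parental loops within 100 kb went from 7 to 4, and at gene ends 2 loops were shared, 4 were parental-only and 4 resistant-only. In the better-ranked part of each list (3415 and 3585 loops) 4 loops within 100 kb were parental-only and 2 resistant-only, and 2 were shared at gene ends. These parts were matched anew against each other, so the 4 include the 35 kb Ovol1 loop that the full lists share. Within 50 kb 4 loops were resistant-only, and within 200 kb 13 were shared, 17 parental-only and 16 resistant-only. With the gene end inside the bin, 1 loop was shared, 0 were parental-only and 1 was resistant-only, and within 10 kb of an end 4 were parental-only. At the starts of the 4 members with a strand, 0 were parental-only. The other 39 alternative counts stayed within 1.5 times the main ones. Of the differences per gene, 61 stayed, 19 moved and none reversed. The 5 against 4 members still became 5 against 0 within 50 kb and 3 against 2 in the better-ranked part. For loops over 15 kb they became 4 against 3, and within 200 kb 5 against 3. The 5 within 200 kb included Zeb1 and not Esrp1. At that distance Esrp1 and Grhl2 had as many parental-only as resistant-only loops. Domains were matched at 7 members with a 10 kb limit (without Snai2), 8 at 40 kb or by the gene's midpoint, and 9 by 80% reciprocal overlap (with Esrp1). These counts are small, so a few loops move them, and the shares of all genes were not computed under these alternatives. No paired analysis was possible because each condition has 1 list. The lists give no depth, and a loop under the authors' threshold is not seen.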
